A study of Mus musculus with 40 samples.

Results

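The collagens, laminins and their basement membrane partners were followed in astrocyte nuclei of the mouse primary visual cortex (V1), with and without the glucocorticoid receptor (GR). Members were chosen by name, with earlier results of these data known. They were every row of the count table for a collagen chain (Col, a number, a, a number) or a laminin chain (Lama, Lamb or Lamc and a number). Nid1, Nid2, Fn1, Fbln1, Fbln2, Spon1, Agrn and Hspg2 were added to these. The names matched 63 of 25239 genes, and 61 were kept because they averaged at least 0.5 CPM over the 40 libraries (CPM are counts divided by the library total and set to the usual common scale). Col10a1 had 0 counts in every library and Col6a5 averaged 0.356 CPM, just outside the limit, whereas Lamb3 was just inside at 0.518 CPM. All 61 kept members were among the 17106 genes with enough counts to be tested.

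All mice were homozygous for a floxed Nr3c1 allele (GR fl/fl) and received an adeno-associated virus in V1 around birth. In GR-KO mice the virus carried Cre, and in GR-Con mice an inactive ΔCre; in both it was driven by the astrocyte promoter GfaABC1D and also marked nuclei with EGFP-KASH. GR-KO and GR-Con therefore differed in active Cre as well as in GR, and these effects cannot be told apart. Mice were kept in darkness until collection (dark rearing, DR) or in a normal light cycle (normal rearing, NR) and were collected at postnatal day 14, 21 or 28 (P14, P21 and P28). Each library came from 80000 sorted GFP+ nuclei of V1 pooled from 1 male and 1 female. There were 4 libraries in each DR group at P21 and P28 and 3 in each of the other 8 groups.

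Basement membranes are thin sheets in which a laminin network and a collagen IV network are bridged by nidogens and by the heparan sulphate proteoglycans perlecan and agrin. In the brain such sheets surround blood vessels and line the pial surface, where astrocyte endfeet attach through integrins and dystroglycan. Endothelial cells, mural cells, leptomeningeal fibroblasts and astrocytes each contribute chains. Fibrillar collagens such as collagens I and III are typical products of fibroblasts, and collagens II, IX and XI are known best from cartilage.

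Libraries held 17240294 to 49221787 counts, and the P21 NR libraries were the shallowest of their age. Astrocyte markers summed to 12533 to 19580.5 CPM over 14 genes. Neuron markers (12 genes) summed to 2105 to 4307 CPM, oligodendrocyte markers (12 genes) to 256 to 1475 CPM, mural cell markers (13 genes) to 202 to 313 CPM, fibroblast and leptomeningeal markers (15 genes) to 65.6 to 171 CPM, endothelial markers (13 genes) to 33.0 to 105 CPM and ependymal and choroid plexus markers (12 genes) to 6.54 to 86.7 CPM. RNA of genes listed as markers of neurons, oligodendrocytes, vascular cells and fibroblasts was thus present beside that of astrocyte markers. Whether it came from such cells or from astrocytes was not tested. Neuron markers had the largest of these other sums, which are not corrected for gene length. Fewer cells of a type and less RNA per cell cannot be told apart in such pools. Nr3c1 itself gave 204 to 309 CPM in GR-KO libraries and 209 to 275 CPM in GR-Con libraries. At P21 under DR it was called higher in GR-KO (log2 fold change 0.26, SE 0.08, adjusted p = 0.0473). Reads were counted over the whole gene body and the position of the deleted stretch was not found in those sources, so that count does not check the genotype. In earlier results of these data 3 libraries had been named as standing apart, GR-KO replicate 3 of P14 NR and, at P21, GR-Con replicate 2 of DR and replicate 1 of NR. By the root mean square log2 distance from the other libraries of its group, each of the 3 was the most distant library of its own group. The distance was 0.430 for the first, against 0.409 and 0.428 in the others of its group. It was 0.489 for the second, against 0.375 to 0.398, and 0.564 for the third, against 0.530 and 0.554. Across groups the 6 largest distances (0.511 to 0.564) were those of the 6 P21 NR libraries. Counts that moved by more than 1.5 times when the 3 were left out together are given beside each result.

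Gene-body counts rise with gene length, so levels were compared between members only as CPM per kilobase (CPM per kb, RefSeq gene length). On this scale Agrn (agrin) was highest with 5.02 CPM per kb, followed by Col11a2 (α2 chain of collagen XI) with 3.72 and Lamb2 (laminin β2) with 3.06. Col9a3 followed with 1.46, Col1a1 with 1.12 and Lama2 (laminin α2) with 0.888 CPM per kb. Lama2 had by far the most counts of the members (564 CPM) but spans 636 kb. The median member stood at 0.156 CPM per kb, against 0.695 CPM per kb for all tested genes with a length, and the lowest, Col6a6, stood at 0.00474 CPM per kb. The median length was 105.5 kb for members and 24.1 kb for all tested genes, so these medians do not compare genes of like length. Of the chains of laminin-211, the form astrocytes place at vessels, Lama2 (α2) and Lamc1 (γ1) stood above the members' median and Lamb1 (β1) was the median member itself. Nid1 (nidogen-1), a vessel-associated linker, reached 0.0779 CPM per kb, and Nid2 (nidogen-2) reached 0.618. All 61 members had less than 5% of their length covered by other RefSeq genes on either strand.

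Between GR-KO and GR-Con a minority of members was called, and of those called more than once all but Fbln2 kept 1 direction. Nid2 and Lama3 (laminin α3, a chain of epithelial laminins) were higher in GR-KO in 5 of 6 comparisons of GR-KO with GR-Con. Fbln1 (fibulin-1, a glycoprotein that binds fibronectin, laminin and nidogen) and Spon1 (F-spondin, a secreted protein of axon guidance) were lower in 4, as was Col5a3 (α3 chain of collagen V). In all, 12 members were called in 2 or more of the 6 comparisons, 4 in 1 and 45 in none. The share of all genes called as often was not counted, so these numbers only describe the members. A call here means an adjusted p below 0.05 from edgeR's quasi-likelihood test (Benjamini-Hochberg over all 17106 genes) and a log2 fold change beyond 0.1 in either direction.

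**Figure D1:**
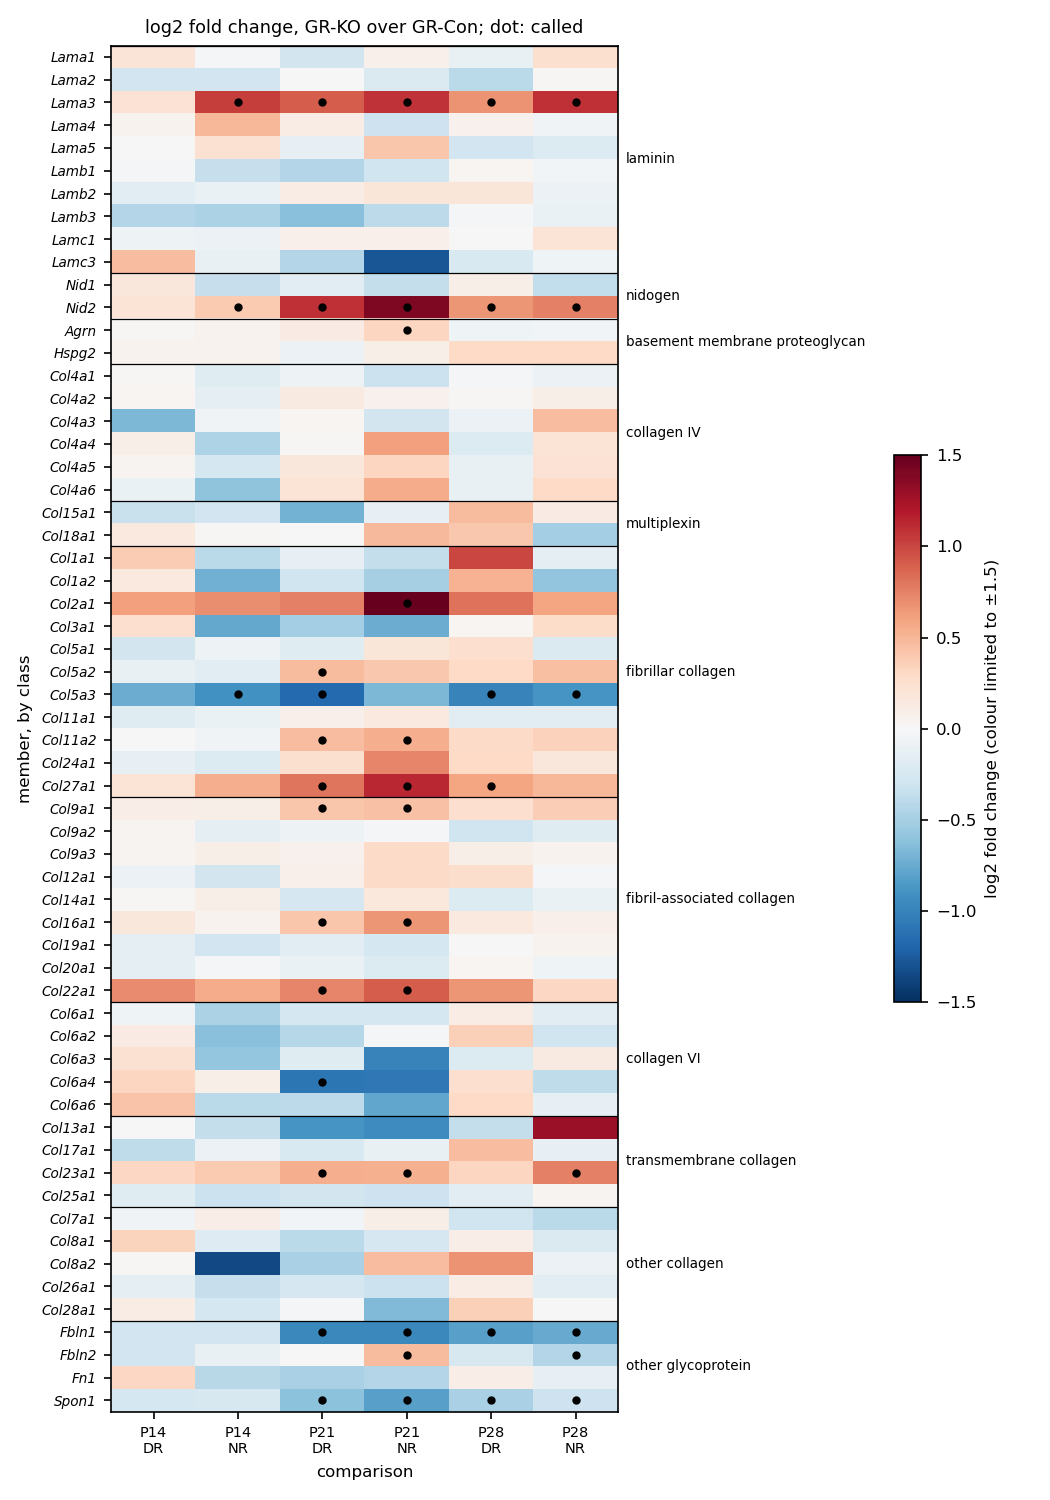
Heat map of the log2 fold change of GR-KO over GR-Con for 60 of the 61 members (rows, by class) at P14, P21 and P28 under DR and NR (columns); colour runs to 1.5 in either direction and a black dot marks a call. Nid2 and Lama3 carry dots in 5 columns, Fbln1, Spon1 and Col5a3 in 4, and the collagen IV rows in none.

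The count of called members depended on age. At P14 no member was called under DR, where 0.0351% of all genes were called higher and 0.24% lower. There 8 of 61 members had an unadjusted p below 0.05 in edgeR, against 791 of all 17106 genes, and DESeq2 also called 0 members. Under NR 2 members were higher (Nid2 and Lama3; 0.462% of all genes) and 1 was lower (Col5a3; 0.649%). None of these 3 calls held throughout: with any 1 of the 6 libraries left out, 0 or 1 remained called, and 1 remained without the 3 named libraries.

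At P21 under DR 9 members were higher (4.3% of all genes) and 4 lower (2.38%), and under NR 11 were higher (4.67%) and 2 lower (2.57%). The 61 members had a median log2 fold change of -0.09 under DR and -0.03 under NR, against -0.01 and 0.02 for all genes. Under DR the count of 13 fell to 7 when replicate 4 of GR-KO or replicate 1 of GR-Con was left out, and to 8 when replicate 2 of GR-KO was. Under NR the 13 fell to 8 when replicate 1 of either genotype, or the 3 named libraries, were left out. In each rearing 7 members were called under every setting tried: Col27a1, Fbln1, Lama3, Nid2 and Spon1 in both, with Col23a1 and Col5a3 under DR and Col16a1 and Col2a1 under NR.

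At P28 under DR 3 members were higher (1.02% of all genes) and 3 lower (1.82%), and under NR 3 were higher (3.4%) and 4 lower (1.54%). Fbln1, Nid2, Spon1 and Col5a3 were called under every setting under DR, and Fbln1, Nid2 and Lama3 under NR.

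**Figure D2:**
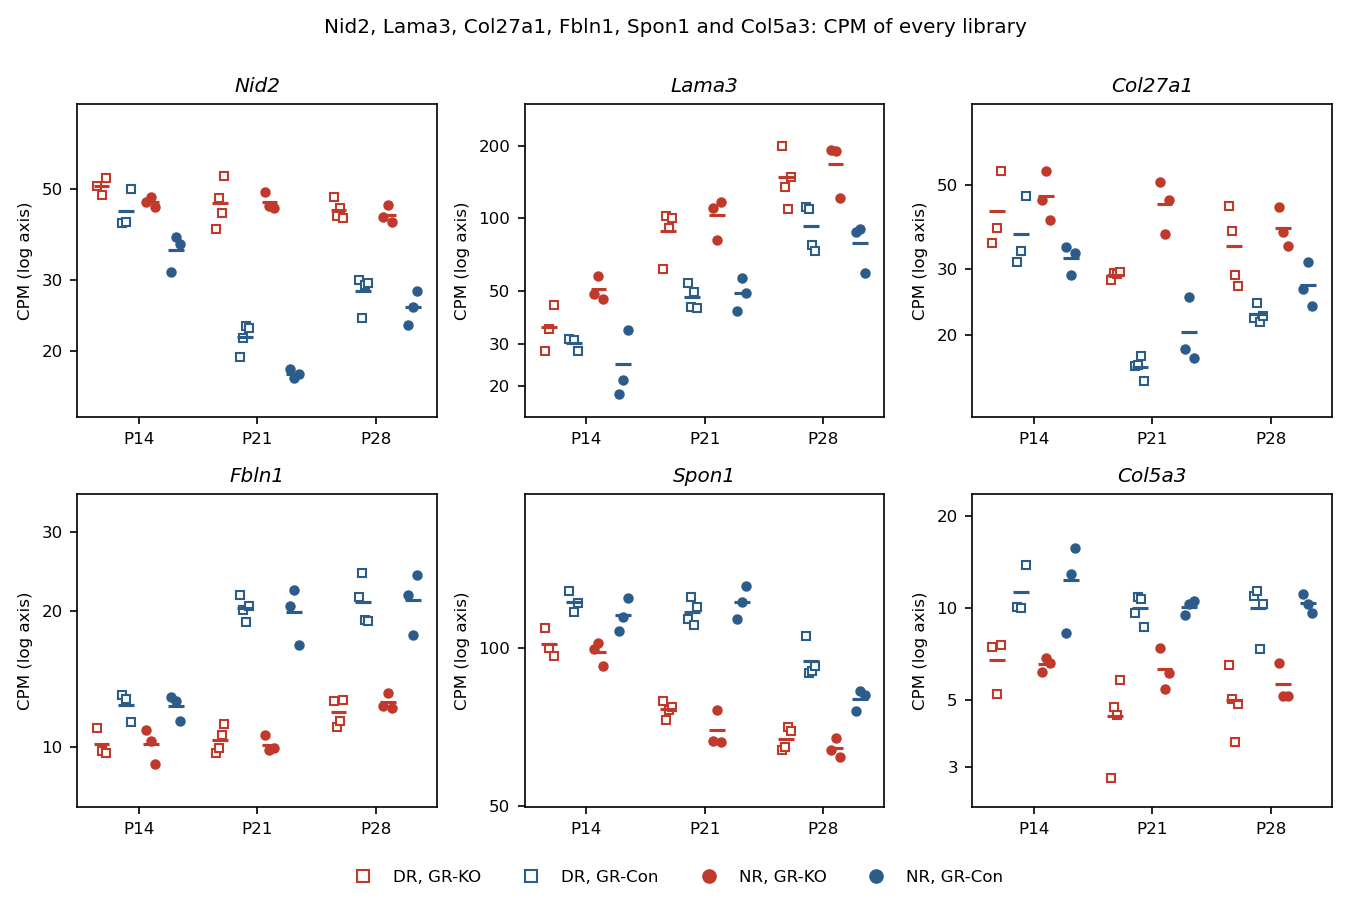
CPM on a log axis (y) of each library at P14, P21 and P28 (x) for Nid2, Lama3, Col27a1, Fbln1, Spon1 and Col5a3; red GR-KO, blue GR-Con, open squares DR, filled circles NR, lines the group means. At P21 all GR-KO libraries lie above all GR-Con libraries of their rearing for Nid2, Lama3 and Col27a1, and below them for Fbln1, Spon1 and Col5a3.

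Among the linkers, Nid2 had the smallest adjusted p of any member. At P21 under DR it had 39.9, 47.6, 43.8 and 54.1 CPM in GR-KO libraries, against 19.3, 21.6, 23.2 and 22.9 CPM in GR-Con libraries. Under NR it had 49.3, 45.5 and 45.1 CPM in GR-KO libraries, against 18.1, 17.2 and 17.6 CPM in GR-Con libraries. The genotypes did not overlap, and the log2 fold changes were 1.09 (SE 0.09, adjusted p = 3.30e-11) under DR and 1.40 (SE 0.10, adjusted p = 1.49e-11) under NR. At P14 under DR it had 51.0, 48.5 and 53.5 CPM in GR-KO libraries, against 41.4, 41.6 and 50.0 CPM in GR-Con libraries, ranges that overlapped, and under NR 46.6, 47.8 and 45.3 CPM in GR-KO libraries, against 31.4, 38.2 and 36.7 CPM in GR-Con libraries, which did not. At P28 under DR it had 48.0, 43.0, 45.0 and 42.5 CPM in GR-KO libraries, against 29.9, 24.1, 29.1 and 29.5 CPM in GR-Con libraries, and under NR 42.8, 45.8 and 41.5 CPM in GR-KO libraries, against 23.2, 25.7 and 28.2 CPM in GR-Con libraries. The P28 log2 fold changes were 0.66 (SE 0.08, adjusted p = 1.95e-06) under DR and 0.76 (SE 0.10, adjusted p = 4.34e-06) under NR, again with no overlap. Nid1, the other nidogen, was called in none of the 6 comparisons.

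Lama3 was the only laminin chain called between genotypes. Under DR at P21 it had 61.4, 102, 91.0 and 100.0 CPM in GR-KO libraries, against 53.7, 42.8, 49.3 and 42.3 CPM in GR-Con libraries, and under NR 111, 81.5 and 117 CPM in GR-KO libraries, against 41.2, 56.3 and 48.8 CPM in GR-Con libraries. All GR-KO libraries were above all GR-Con libraries in both rearings, with log2 fold changes of 0.91 (SE 0.20, adjusted p = 0.00208) under DR and 1.08 (SE 0.23, adjusted p = 0.00209) under NR. At P14 under DR the groups overlapped, with 27.9, 34.4 and 43.5 CPM in GR-KO libraries, against 31.4, 31.2 and 28.1 CPM in GR-Con libraries. At P14 under NR they were apart, with 48.3, 57.4 and 45.9 CPM in GR-KO libraries, against 18.5, 21.3 and 34.4 CPM in GR-Con libraries and a log2 fold change of 1.04 (SE 0.23, adjusted p = 0.0146). Under DR at P28 it had 199, 135, 109 and 148 CPM in GR-KO libraries, against 111, 109, 77.2 and 72.8 CPM in GR-Con libraries, which overlapped, and under NR 193, 190.4 and 122 CPM in GR-KO libraries, against 87.2, 89.9 and 59.2 CPM in GR-Con libraries, which did not. The call at P28 under DR was marginal (log2 fold change 0.68, SE 0.20, adjusted p = 0.04999) and was lost without any 1 of 5 of its 8 libraries.

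Fbln1 moved the other way. The study itself picked Fbln1 from these libraries as a gene of the mature matrix, so its direction here is not independent evidence. Under DR at P21 it had 9.68, 9.94, 10.6 and 11.3 CPM in GR-KO libraries, against 21.7, 20.2, 19 and 20.5 CPM in GR-Con libraries, and under NR 10.6, 9.82 and 9.93 CPM in GR-KO libraries, against 20.5, 22.3 and 16.8 CPM in GR-Con libraries. GR-KO was at about the same level in both rearings and below every GR-Con library, with log2 fold changes of -0.97 (SE 0.09, adjusted p = 4.73e-09) and -0.97 (SE 0.11, adjusted p = 2.13e-07). In DR libraries of P28 it had 12.6, 11.1, 11.4 and 12.7 CPM in GR-KO libraries, against 21.5, 24.3, 19.1 and 19 CPM in GR-Con libraries, and under NR 12.3, 13.1 and 12.2 CPM in GR-KO libraries, against 21.7, 17.7 and 24.1 CPM in GR-Con libraries, with log2 fold changes of -0.81 (SE 0.09, adjusted p = 2.88e-07) and -0.75 (SE 0.11, adjusted p = 2.00e-05). Under DR at P14 it had 11, 9.80 and 9.71 CPM in GR-KO libraries, against 13.0, 12.8 and 11.4 CPM in GR-Con libraries, and under NR 10.9, 10.3 and 9.17 CPM in GR-KO libraries, against 12.9, 12.7 and 11.4 CPM in GR-Con libraries. Those P14 groups did not overlap either, but neither difference was called (-0.29 [SE 0.11, adjusted p = 0.745] under DR and -0.28 [SE 0.11, adjusted p = 0.35] under NR).

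Spon1 was also called lower in GR-KO at P21 and P28. At P21 under DR it had 79.2, 72.9, 76.1 and 77.2 CPM in GR-KO libraries, against 114, 125, 111 and 119 CPM in GR-Con libraries, and under NR 66.5, 76.2 and 66.1 CPM in GR-KO libraries, against 113, 122 and 131 CPM in GR-Con libraries. The groups were well apart, with log2 fold changes of -0.62 (SE 0.07, adjusted p = 2.53e-08) and -0.81 (SE 0.08, adjusted p = 2.78e-09). At P28 under DR it had 63.7, 64.7, 70.6 and 69.5 CPM in GR-KO libraries, against 105, 89.4, 90.4 and 92.3 CPM in GR-Con libraries, and under NR 63.8, 67.4 and 62.0 CPM in GR-KO libraries, against 75.6, 82.7 and 81.1 CPM in GR-Con libraries. The log2 fold changes at that age were -0.49 (SE 0.07, adjusted p = 3.94e-06) under DR and -0.31 (SE 0.08, adjusted p = 0.0116) under NR, where the call was lost without GR-KO replicate 1. In DR libraries of P14 it had 109, 99.8 and 96.6 CPM in GR-KO libraries, against 128, 117 and 121 CPM in GR-Con libraries, and under NR 99.4, 102 and 92.5 CPM in GR-KO libraries, against 107, 114 and 124 CPM in GR-Con libraries. GR-KO was thus below GR-Con without overlap at P14 too, but neither difference was called.

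Fbln2 (fibulin-2), a close relative of Fbln1, did not keep one direction. Under NR it was higher in GR-KO at P21, with 17.3, 19 and 15.6 CPM in GR-KO libraries, against 11.6, 13.7 and 12.1 CPM in GR-Con libraries (log2 fold change 0.48, SE 0.12, adjusted p = 0.0121). Under NR at P28 it was lower, with 13.3, 14.9 and 10.4 CPM in GR-KO libraries, against 16.9, 18.1 and 17.3 CPM in GR-Con libraries (log2 fold change -0.44, SE 0.12, adjusted p = 0.0232). The P21 call was lost without GR-KO replicate 2 or GR-Con replicate 1 or 3, and the P28 call without any 1 library but GR-KO replicate 2. Under DR the groups overlapped at P21, with 14.9, 16.6, 14.4 and 17.0 CPM in GR-KO libraries, against 17.4, 16.1, 15.7 and 13.9 CPM in GR-Con libraries, and at P28, with 12.9, 13.2, 11.1 and 15.1 CPM in GR-KO libraries, against 16.5, 13.6, 15.3 and 16.6 CPM in GR-Con libraries. At P14 under DR it had 20.9, 19 and 23.0 CPM in GR-KO libraries, against 23.5, 24.5 and 28.6 CPM in GR-Con libraries, and under NR 20.9, 20.2 and 21.3 CPM in GR-KO libraries, against 22.4, 20.1 and 24.7 CPM in GR-Con libraries; none of these was called. Fn1 (fibronectin) was called in no comparison of the genotypes.

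At P21 4.3% of all genes were higher in GR-KO and 2.38% lower under DR, and 4.67% higher and 2.57% lower under NR. The classes of members are small, so counts within them are not read as results about a class. Of 11 fibrillar collagens, 3 were higher and 1 lower under DR at P21, and 3 were higher and 0 lower under NR. Col27a1 (collagen XXVII, a cartilage collagen) had the largest rise called in both rearings. Under DR at P21 it had 28, 29.2, 29.1 and 29.3 CPM in GR-KO libraries, against 16.6, 16.7, 17.6 and 15.2 CPM in GR-Con libraries (log2 fold change 0.81, SE 0.15, adjusted p = 2.46e-04). Under NR it had 50.8, 36.9 and 45.6 CPM in GR-KO libraries, against 18.4, 25.3 and 17.4 CPM in GR-Con libraries (log2 fold change 1.13, SE 0.17, adjusted p = 2.64e-05). At P28 under DR it was again apart, with 43.8, 37.7, 28.9 and 27.0 CPM in GR-KO libraries, against 22.2, 24.4, 21.7 and 22.5 CPM in GR-Con libraries (log2 fold change 0.60, SE 0.14, adjusted p = 0.0112), and under NR it had 43.6, 37.5 and 34.3 CPM in GR-KO libraries, against 26.5, 31.1 and 23.9 CPM in GR-Con libraries (log2 fold change 0.50, SE 0.17, adjusted p = 0.078), which was not called; the P28 DR call was lost without GR-KO replicate 1 or 2. Under DR at P14 it had 35.0, 38.4 and 54.4 CPM in GR-KO libraries, against 31.3, 33.3 and 46.5 CPM in GR-Con libraries, and under NR 45.6, 54.4 and 40.2 CPM in GR-KO libraries, against 34.2, 28.8 and 33.0 CPM in GR-Con libraries, with no call.

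Col11a2, the second highest member per kilobase, had 111, 151, 127 and 153 CPM in GR-KO libraries, against 97.5, 100.3, 106 and 89.6 CPM in GR-Con libraries at P21 under DR (log2 fold change 0.46, SE 0.13, adjusted p = 0.0246). Under NR it had 134, 90.0 and 121 CPM in GR-KO libraries, against 77.2, 84.6 and 74.4 CPM in GR-Con libraries (log2 fold change 0.54, SE 0.15, adjusted p = 0.0229). The groups did not overlap, but the call was lost without any of 4 single libraries in each rearing. In DR libraries of P14 it had 43.2, 58.0 and 55.5 CPM in GR-KO libraries, against 53.2, 51.7 and 51.4 CPM in GR-Con libraries, and under NR 39.2, 54.3 and 56.6 CPM in GR-KO libraries, against 44.5, 42.5 and 69.0 CPM in GR-Con libraries. Under DR at P28 it had 187, 163, 149 and 164 CPM in GR-KO libraries, against 132, 127, 129 and 154 CPM in GR-Con libraries, and under NR 155, 128 and 161 CPM in GR-KO libraries, against 117, 119 and 114 CPM in GR-Con libraries. Neither age gave a call between genotypes.

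Col2a1 (collagen II, the main cartilage collagen) was higher in GR-KO at P21 under NR, but it rested on 73 counts over the 3 GR-KO libraries and 11 over the 3 GR-Con libraries. Its values there were 0.818, 1.17 and 1.28 CPM in GR-KO libraries, against 0.0598, 0.327 and 0.168 CPM in GR-Con libraries, and the log2 fold change was 2.52 (SE 0.57, adjusted p = 0.00345). Under DR at P21 it had 0.652, 0.992, 0.818 and 1.23 CPM in GR-KO libraries, against 0.687, 0.894, 0.2 and 0.394 CPM in GR-Con libraries, ranges that overlapped. At P14 under DR it had 2.17, 1.69 and 1.18 CPM in GR-KO libraries, against 1.16, 1.17 and 0.963 CPM in GR-Con libraries, and under NR 1.95, 1.64 and 1.30 CPM in GR-KO libraries, against 1.02, 1.23 and 0.762 CPM in GR-Con libraries. In DR libraries of P28 it had 1.42, 1.02, 0.583 and 1.13 CPM in GR-KO libraries, against 0.669, 0.528, 0.466 and 0.675 CPM in GR-Con libraries, and under NR 0.686, 1.07 and 0.758 CPM in GR-KO libraries, against 0.432, 1.03 and 0.211 CPM in GR-Con libraries; outside P21 NR no difference was called.

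Col5a3 was the fibrillar collagen that fell. In DR libraries of P21 it had 2.77, 4.74, 4.43 and 5.78 CPM in GR-KO libraries, against 9.62, 10.8, 10.7 and 8.63 CPM in GR-Con libraries (log2 fold change -1.17, SE 0.19, adjusted p = 4.58e-05). Under NR it had 7.36, 5.43 and 6.09 CPM in GR-KO libraries, against 9.45, 10.2 and 10.5 CPM in GR-Con libraries, also without overlap, but the difference missed the threshold (log2 fold change -0.68, SE 0.23, adjusted p = 0.0628). At P28 under DR it had 6.47, 5.03, 3.63 and 4.83 CPM in GR-KO libraries, against 10.9, 11.3, 7.34 and 10.3 CPM in GR-Con libraries (log2 fold change -1.0, SE 0.19, adjusted p = 7.07e-04), and under NR 6.57, 5.13 and 5.15 CPM in GR-KO libraries, against 11.1, 10.3 and 9.63 CPM in GR-Con libraries (log2 fold change -0.88, SE 0.22, adjusted p = 0.0114). Under DR at P14 it had 7.42, 5.22 and 7.55 CPM in GR-KO libraries, against 10.1, 9.99 and 13.8 CPM in GR-Con libraries (log2 fold change -0.75, SE 0.22, adjusted p = 0.207), and under NR 6.13, 6.85 and 6.60 CPM in GR-KO libraries, against 8.24, 12.9 and 15.7 CPM in GR-Con libraries (log2 fold change -0.91, SE 0.22, adjusted p = 0.0225). The genotypes did not overlap in any of the 6 comparisons, although the P28 NR call was lost without GR-KO replicate 2 or GR-Con replicate 1. Its partner chain Col5a2 was higher at P21 under DR (log2 fold change 0.48, SE 0.13, adjusted p = 0.0192), and Col5a1 was not called between genotypes.

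Of 9 fibril-associated collagens, which coat fibrils without forming them, 3 were higher at P21 in each rearing and 0 were lower: Col9a1, Col16a1 and Col22a1. Over all genes 4.3% were higher and 2.38% lower under DR, and 4.67% and 2.57% under NR. So small a class is not read as a result about the class. Col16a1 at P21 under DR had 34.7, 44.8, 37.9 and 47.0 CPM in GR-KO libraries, against 31.2, 28.7, 33.7 and 29.4 CPM in GR-Con libraries (log2 fold change 0.42, SE 0.13, adjusted p = 0.0355), and under NR 54.3, 37.7 and 50.0 CPM in GR-KO libraries, against 26.7, 33.9 and 29.1 CPM in GR-Con libraries (log2 fold change 0.66, SE 0.15, adjusted p = 0.00345). The groups did not overlap, but the DR call was lost without replicate 2 or 4 of GR-KO or replicate 1, 2 or 4 of GR-Con and with the 3 named libraries left out. Col16a1 had 51.6, 47.3 and 62.7 CPM in GR-KO libraries, against 43.8, 44.8 and 55.1 CPM in GR-Con libraries at P14 under DR and 46.9, 58.0 and 52.2 CPM in GR-KO libraries, against 51.0, 43.2 and 57.6 CPM in GR-Con libraries under NR. At P28 it had 65.0, 53.9, 45.9 and 51.0 CPM in GR-KO libraries, against 53.7, 47.2, 47.5 and 46.5 CPM in GR-Con libraries under DR and 52.8, 43.2 and 48.7 CPM in GR-KO libraries, against 39.7, 55.4 and 42.7 CPM in GR-Con libraries under NR, and neither age gave a call.

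Col22a1, known from tissue junctions of muscle and tendon, had 7.97, 8.66, 8.14 and 10.5 CPM in GR-KO libraries, against 4.10, 7.36, 4.96 and 4.90 CPM in GR-Con libraries at P21 under DR (log2 fold change 0.73, SE 0.22, adjusted p = 0.0363) and 19.1, 15.2 and 10.7 CPM in GR-KO libraries, against 6.46, 8.39 and 9.14 CPM in GR-Con libraries under NR (log2 fold change 0.90, SE 0.26, adjusted p = 0.0255). It had 13.2, 11.5 and 21 CPM in GR-KO libraries, against 12, 9.77 and 6.11 CPM in GR-Con libraries at P14 under DR and 14.7, 22.1 and 15.9 CPM in GR-KO libraries, against 11.9, 11 and 12.8 CPM in GR-Con libraries under NR. At P28 it had 7.13, 7.26, 8.27 and 11.3 CPM in GR-KO libraries, against 4.84, 5.59, 5.50 and 5.51 CPM in GR-Con libraries under DR and 7.53, 8.32 and 9.73 CPM in GR-KO libraries, against 4.61, 6.62 and 9.54 CPM in GR-Con libraries under NR; outside P21 it was not called. Its P21 calls were lost without any of 5 single libraries under DR and 4 under NR, replicate 1 of GR-Con among them in both.

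Col9a1 (α1 chain of collagen IX) had 17.5, 26.7, 21.9 and 24.0 CPM in GR-KO libraries, against 12.9, 18.6, 18.3 and 17.7 CPM in GR-Con libraries at P21 under DR (log2 fold change 0.42, SE 0.11, adjusted p = 0.0175), where GR-KO replicate 1 fell within the GR-Con range; it was lost without replicate 2 or 4 of GR-KO or replicate 1 of GR-Con. Under NR it had 22.8, 25.2 and 22.0 CPM in GR-KO libraries, against 14.4, 19.1 and 18.2 CPM in GR-Con libraries (log2 fold change 0.43, SE 0.14, adjusted p = 0.0444), and this call was lost without any 1 of the 6 libraries. Col9a1 had 30.5, 33.7 and 30.3 CPM in GR-KO libraries, against 27.6, 33.2 and 27.1 CPM in GR-Con libraries at P14 under DR and 27.5, 29.0 and 27.3 CPM in GR-KO libraries, against 23.0, 28.2 and 27.6 CPM in GR-Con libraries under NR. At P28 it had 13.6, 17.8, 17.3 and 17.1 CPM in GR-KO libraries, against 15.7, 13.7, 13.3 and 12.6 CPM in GR-Con libraries under DR and 16.5, 16.3 and 17.7 CPM in GR-KO libraries, against 13.5, 12.1 and 13.3 CPM in GR-Con libraries under NR. The other chains of collagen IX, Col9a2 and Col9a3, were not called between genotypes.

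Col23a1 was the 1 called member of 4 transmembrane collagens. At P21 it had 72.0, 76.9, 68.6 and 85.7 CPM in GR-KO libraries, against 50.0, 54.1, 47.6 and 55.9 CPM in GR-Con libraries under DR (log2 fold change 0.55, SE 0.12, adjusted p = 0.00251) and 79.8, 66.2 and 60.8 CPM in GR-KO libraries, against 45.7, 49.9 and 47.9 CPM in GR-Con libraries under NR (log2 fold change 0.53, SE 0.14, adjusted p = 0.015). Under DR at P28 it had 65.5, 48.6, 48.3 and 53.9 CPM in GR-KO libraries, against 44.7, 48.8, 42.8 and 37.2 CPM in GR-Con libraries, which overlapped, and under NR 60.2, 75.8 and 48.4 CPM in GR-KO libraries, against 31.2, 45.0 and 32.7 CPM in GR-Con libraries, which did not (log2 fold change 0.76, SE 0.14, adjusted p = 5.55e-04). In DR libraries of P14 it had 84.0, 65.3 and 79.2 CPM in GR-KO libraries, against 62.6, 62.7 and 59.5 CPM in GR-Con libraries, and under NR 65.0, 72.0 and 61.2 CPM in GR-KO libraries, against 45.7, 52.4 and 52.6 CPM in GR-Con libraries; GR-KO was above GR-Con in both, but neither was called. The P21 NR call was lost without replicate 1 of either genotype. Of 5 collagen VI chains Col6a4 alone was called, lower at P21 under DR (log2 fold change -1.08, SE 0.33, adjusted p = 0.038) at about 1 CPM and with overlapping groups. It had 0.937, 0.605, 0.474 and 0.642 CPM in GR-KO libraries, against 1.24, 2.43, 1.20 and 0.789 CPM in GR-Con libraries there, and the call was lost without any of 5 single libraries.

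Promoter sequence was available for 8 of the 12 members called in 2 or more comparisons (RefSeq, GRCm38.p6, 250 bases before to 50 after the first listed start). They are shown because GR binds DNA and the study linked it with nuclear factor I (NFI). Both strands were searched for the GR half-site AGAACA and the NFI half-site TTGGCA. Of these promoters 4 held 1 match each, marked in capitals; the other 4 (Col11a2, Col23a1, Fbln2 and Col5a3) held neither.
Fbln1 (chr15:85205699-85205998, plus strand): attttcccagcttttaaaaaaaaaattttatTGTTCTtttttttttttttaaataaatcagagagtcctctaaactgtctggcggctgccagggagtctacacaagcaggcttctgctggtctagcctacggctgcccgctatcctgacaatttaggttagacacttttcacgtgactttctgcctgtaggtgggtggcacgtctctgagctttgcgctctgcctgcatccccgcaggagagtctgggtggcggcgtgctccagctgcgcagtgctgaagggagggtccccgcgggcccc
Col9a1 (chr1:24177360-24177659, plus strand): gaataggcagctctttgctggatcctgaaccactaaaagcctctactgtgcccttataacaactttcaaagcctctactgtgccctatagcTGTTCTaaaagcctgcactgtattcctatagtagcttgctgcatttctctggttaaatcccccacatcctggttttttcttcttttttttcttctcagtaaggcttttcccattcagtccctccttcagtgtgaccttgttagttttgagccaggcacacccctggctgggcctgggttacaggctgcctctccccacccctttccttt
Col27a1 (chr4:63215162-63215461, plus strand): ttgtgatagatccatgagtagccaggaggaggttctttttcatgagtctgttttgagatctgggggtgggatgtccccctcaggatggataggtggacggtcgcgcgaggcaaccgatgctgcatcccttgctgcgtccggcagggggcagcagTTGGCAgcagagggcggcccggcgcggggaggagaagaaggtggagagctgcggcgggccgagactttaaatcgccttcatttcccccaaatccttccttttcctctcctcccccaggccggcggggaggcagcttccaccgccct
Col16a1 (chr4:130047590-130047889, plus strand): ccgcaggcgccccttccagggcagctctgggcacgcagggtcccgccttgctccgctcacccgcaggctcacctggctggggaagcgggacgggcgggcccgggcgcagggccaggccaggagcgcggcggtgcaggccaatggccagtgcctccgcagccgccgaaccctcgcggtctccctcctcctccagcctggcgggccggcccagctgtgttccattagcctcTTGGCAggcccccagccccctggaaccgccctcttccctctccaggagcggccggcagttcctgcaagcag
The GR half-site stood in the windows of Fbln1 and Col9a1, which moved in opposite directions in GR-KO, and the NFI half-site in those of Col27a1 and Col16a1. Over 43 kept members with a promoter, 9.3% held the GR half-site, against 19% of the 27025 gene promoters in the reference, and 16.3% held the NFI half-site, against 14.4%. The full GR site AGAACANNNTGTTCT was in 0 of the members' windows and in 0.0037% of all promoters. A match of letters is a description and not a binding site.

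Of the laminins, collagen IV chains, nidogens, perlecan and agrin, only Nid2, Lama3 and Agrn were called between genotypes. Lama2, Lamb2, Lamc1, Col4a1, Col4a2, Nid1 and Hspg2 (perlecan) were called in 0 of the 6 comparisons, as were all 6 collagen IV chains. At P21 under NR the 95% interval of the log2 fold change ran from -0.51 to 0.08 for Lama2, from -0.02 to 0.38 for Lamb2 and from -0.11 to 0.25 for Lamc1. For Col4a1 it ran from -0.60 to -0.04 and for Col4a2 from -0.17 to 0.28. Under DR at the same age the intervals were -0.25 to 0.26 for Lama2, -0.06 to 0.28 for Lamb2 and -0.08 to 0.23 for Lamc1. The widest were those of Nid1, -0.63 to 0.31 under DR and -0.95 to 0.24 under NR. Log2 changes as large as that of Nid2 at P21 lie outside all of these intervals. Lama2 came nearest to a call at P28 under DR (log2 fold change -0.40, SE 0.13, adjusted p = 0.0808), with 569, 499, 448 and 513 CPM in GR-KO libraries, against 726, 667, 679 and 614 CPM in GR-Con libraries, groups that did not overlap. Beside Nid2 and Lama3, whose values are given above, Agrn was the other exception. At P21 under NR it had 169, 152 and 168 CPM in GR-KO libraries, against 126, 127 and 137 CPM in GR-Con libraries (log2 fold change 0.33, SE 0.09, adjusted p = 0.0169), while under DR it had 136, 168, 157 and 178 CPM in GR-KO libraries, against 151, 143, 156 and 137 CPM in GR-Con libraries, which overlapped. The NR call was lost without replicate 1 or 3 of GR-KO or replicate 1 or 2 of GR-Con.

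**Figure D3:**
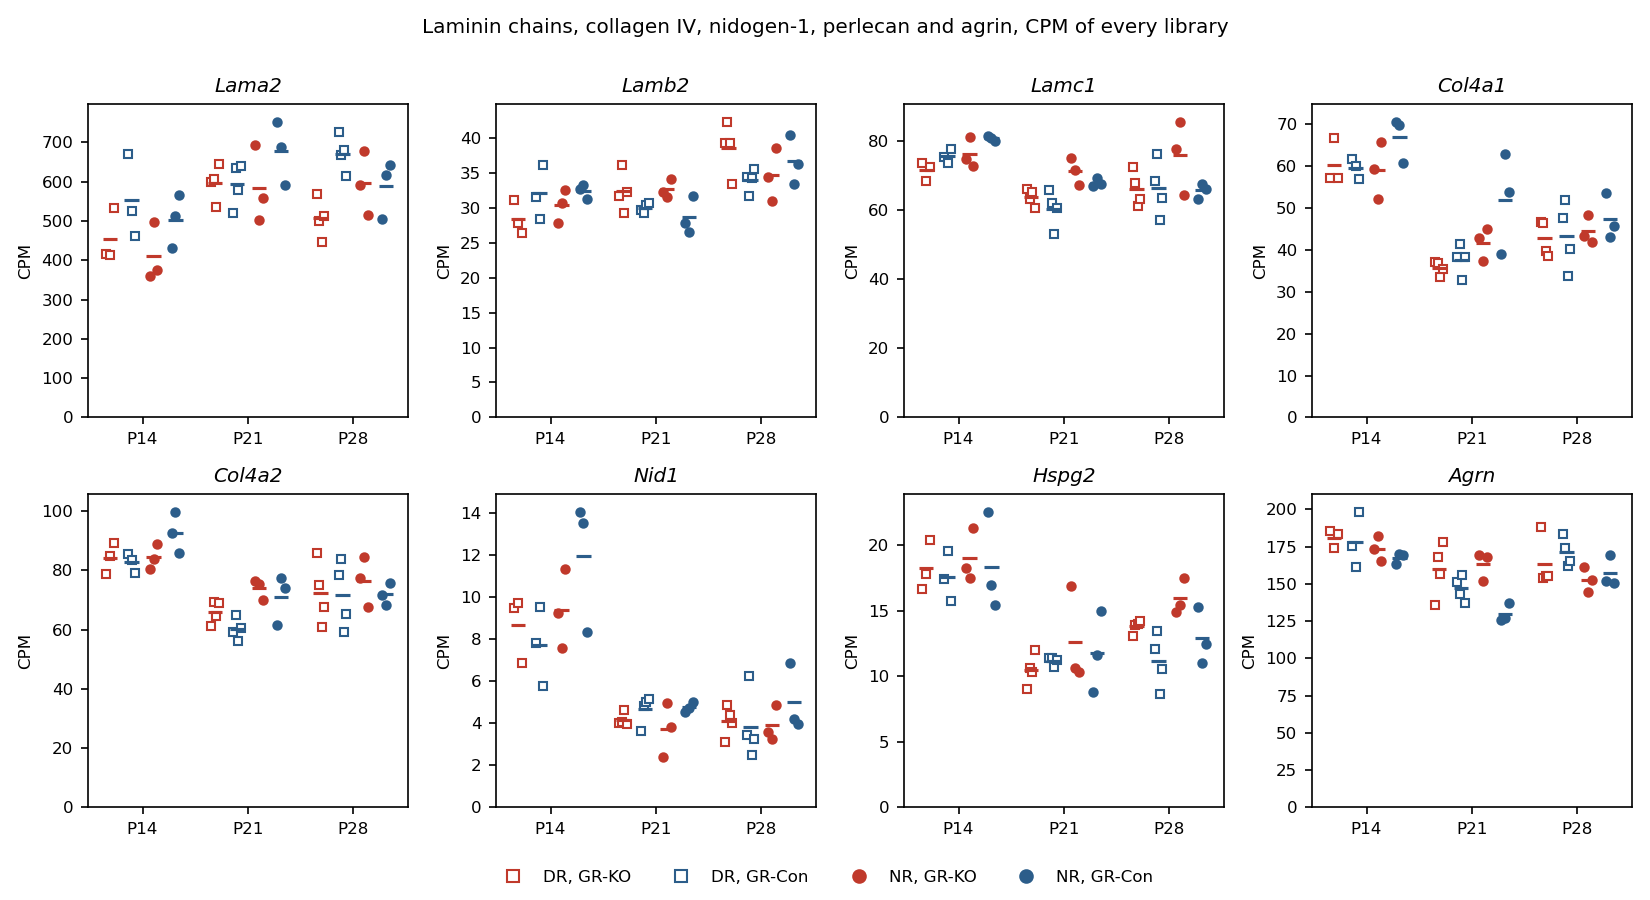
CPM from 0 (y) of each library at P14, P21 and P28 (x) for Lama2, Lamb2, Lamc1, Col4a1, Col4a2, Nid1, Hspg2 and Agrn; red GR-KO, blue GR-Con, open squares DR, filled circles NR, lines the group means. GR-KO and GR-Con points mix at most ages, Nid1 and Hspg2 are highest at P14, and Agrn in NR GR-KO stands above NR GR-Con at P21.

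The GR difference itself was compared between ages. From P14 to P21 under DR it grew for Nid2 (log2 difference 0.89, SE 0.13, adjusted p = 2.51e-04) and became more negative for Fbln1 (log2 difference -0.69, SE 0.15, adjusted p = 0.0474), against 0.0935% of all genes called. Under NR (0.304% called) it grew for Nid2 (log2 difference 1.01, SE 0.14, adjusted p = 2.57e-04), turned for Col4a6 (log2 difference 1.16, SE 0.26, adjusted p = 0.0384) and became more negative for Fbln1 (log2 difference -0.69, SE 0.16, adjusted p = 0.0459) and Spon1 (log2 difference -0.58, SE 0.11, adjusted p = 0.011). Col4a6 had 23.3, 15.1 and 17.8 CPM in GR-KO libraries, against 14.2, 12.4 and 11.7 CPM in GR-Con libraries at P21 and 13.9, 16.0 and 12.4 CPM in GR-KO libraries, against 20.2, 19.1 and 25.1 CPM in GR-Con libraries at P14, so that GR-KO was above GR-Con at P21 and below it at P14, although neither difference was called. From P21 to P28 under NR (0.14%) it shrank for Nid2 (log2 difference -0.65, SE 0.14, adjusted p = 0.0459) and Spon1 (log2 difference 0.50, SE 0.11, adjusted p = 0.0385) and turned for Fbln2 (log2 difference -0.92, SE 0.17, adjusted p = 0.0131). From P21 to P28 under DR 0 members were called (0.00585% of all genes), and DESeq2 also called 0. There 6 of 61 members had an unadjusted p below 0.05 in edgeR, against 1886 of all 17106 genes. Only the growth of the Nid2 difference up to P21 held under every setting in both rearings. Leaving out 1 library, or the 3 named libraries together, left 1 to 4 calls up to P21 under NR, 1 or 2 under DR and 0 to 2 from P21 to P28 under NR. The lowest counts were 1 without P14 NR GR-Con replicate 1 or P21 NR GR-KO replicate 1 and 0 without P28 NR GR-Con replicate 2.

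For these members the genotype difference was taken apart by age within each genotype. In GR-KO Nid2 averaged 51.0, 46.3 and 44.6 CPM at P14, P21 and P28 under DR and 46.5, 46.6 and 43.4 CPM under NR. In GR-Con it averaged 44.3, 21.8 and 28.2 CPM under DR and 35.4, 17.6 and 25.7 CPM under NR. From P14 to P21 Nid2 was not called in GR-KO (log2 fold change -0.14 [SE 0.09, adjusted p = 0.353] under DR and 0.00 [SE 0.10, adjusted p = 0.993] under NR) and was lower at P21 in GR-Con (-1.03 [SE 0.09, adjusted p = 4.93e-10] under DR and -1.01 [SE 0.10, adjusted p = 2.18e-08] under NR). Fbln1 ran the other way. In GR-KO it averaged 10.2, 10.4 and 12 CPM under DR and 10.1, 10.1 and 12.6 CPM under NR, and in GR-Con 12.4, 20.3 and 21 CPM under DR and 12.3, 19.9 and 21.2 CPM under NR. From P14 to P21 it was not called in GR-KO and rose in GR-Con (0.71 [SE 0.10, adjusted p = 4.16e-06] under DR and 0.69 [SE 0.11, adjusted p = 3.71e-05] under NR). Spon1 was lower at P21 than at P14 in GR-KO (-0.42 [SE 0.07, adjusted p = 6.90e-05] and -0.49 [SE 0.08, adjusted p = 3.08e-05]), and lower at P28 than at P21 in GR-Con (-0.31 [SE 0.07, adjusted p = 0.00934] and -0.62 [SE 0.08, adjusted p = 7.15e-06]). Lama3 was higher at P21 than at P14 in both genotypes and rearings.

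More members were called between P14 and P21 than between genotypes, and the same held for all genes. For age a call needed an adjusted p below 0.05 and a log2 fold change beyond 0.3. At P21 against P14 in GR-KO 4 members were higher (5.52% of all genes) and 21 lower (6.02%) under DR, and 4 were higher (5.22%) and 13 lower (4.82%) under NR. In GR-Con 4 were higher (6.52%) and 16 lower (6.72%) under DR, and 4 were higher (6.53%) and 23 lower (7.12%) under NR. The members' median log2 fold change lay between -0.44 and -0.18 in these 4 comparisons, against -0.03 to -0.00 for all genes. In GR-KO under NR the count of 17 fell to 10 without P14 GR-KO replicate 3, to 11 without P21 GR-KO replicate 3 and to 11 without the 3 named libraries.

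Lower members at P21 came from most classes. Nid1 fell in all 4 comparisons (log2 fold changes from -1.33 to -0.73), as did Lama4 (laminin α4, the endothelial chain; -1.66 to -0.85) and Hspg2 (-0.80 to -0.59). Col11a1 and Col9a3 also fell in all 4. Col3a1, the collagen III chain of fibroblasts, fell in both GR-KO comparisons and in GR-Con under NR, where it had 4.91, 5.45 and 6.29 CPM at P21 and 27.3, 18.3 and 8.21 CPM at P14 (log2 fold change -1.69, SE 0.32, adjusted p = 3.21e-04). Col2a1 had the largest fall in GR-Con under NR, with 0.0598, 0.327 and 0.168 CPM at P21 and 1.02, 1.23 and 0.762 CPM at P14 (log2 fold change -2.41, SE 0.56, adjusted p = 0.00255), on few counts. Neither overlapped between these ages. Some of these calls were lost without a single library. In NR GR-KO the call of Hspg2 was lost without P14 replicate 1 or 3 or P21 replicate 2 or 3, and that of Col9a3 without replicate 2 or 3 of either age. In NR GR-Con Hspg2 was lost without replicate 1 of either age, in DR GR-Con Nid1 was lost without P14 replicate 1 or 2 or P21 replicate 1, 2 or 3, and in DR GR-KO Col9a3 was lost without P14 replicate 3.

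In each of the 4 comparisons of P21 with P14, 4 of 61 members were higher, against 5.22% to 6.53% of all genes. That is near the share over all genes and is not read as a result about the members. Col11a2 rose in all 4 comparisons, by 1.37 (SE 0.15, adjusted p = 4.07e-08) and 1.20 (SE 0.15, adjusted p = 1.94e-06) in GR-KO under DR and NR, and by 0.92 (SE 0.15, adjusted p = 2.15e-05) and 0.60 (SE 0.15, adjusted p = 0.00651) in GR-Con. Its sister chain Col11a1 fell in the same 4. Lama3 rose in all 4 as well, and Lama2 rose under NR in both genotypes. In DR GR-Con the call of Lama3 was lost without any 1 P14 library or P21 replicate 1 or 3. The calls of Lama2 were lost in GR-KO without P14 replicate 1 or 3 or P21 replicate 1, in GR-Con without replicate 1 or 2 of either age, and in both with a score of fibroblast, endothelial and mural markers as a covariate, as were those of Hspg2 under NR. In NR GR-Con the call of Col11a2 was lost without P14 replicate 1 or 2.

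Markers of other cells moved over the same step. Between P21 and P14 the summed oligodendrocyte markers changed, with 11 of 12 genes higher in each of the 4 comparisons; in NR GR-Con they summed to 1077 to 1287 CPM at P21 and 360.2 to 431 CPM at P14. Endothelial markers had 0 to 3 of 13 genes lower and 0 higher. Mural cell markers had 3 of 13 genes lower and 1 higher in each GR-KO comparison. In GR-Con 2 were lower under DR and 1 under NR, and their sums did not overlap, at 209.5 to 231 CPM at P21 and 248 to 282 CPM at P14 under DR, and 202 to 219 CPM at P21 and 238 to 284 CPM at P14 under NR. Of the fibroblast markers in GR-Con, 2 of 14 tested genes were higher under DR, where the sums were 138 to 169 CPM at P21 and 71.3 to 132 CPM at P14, and 2 were lower under NR, where the sums were 113 to 114 CPM at P21 and 85.1 to 171 CPM at P14. In GR-KO 3 fibroblast genes were lower under DR, and 1 was lower and 1 higher under NR. Oligodendrocyte precursor markers had 4 of 9 tested genes lower in each GR-KO comparison, 1 lower and 1 higher in DR GR-Con and 1 higher in NR GR-Con, and their sums were lower at P21 without overlap in all 4. The part of these cells in the members' changes was not tested beyond the fit with that marker score as a covariate, in which 23 and 14 members were called in GR-KO under DR and NR and 21 and 22 in GR-Con under DR and NR.

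**Figure D4:**
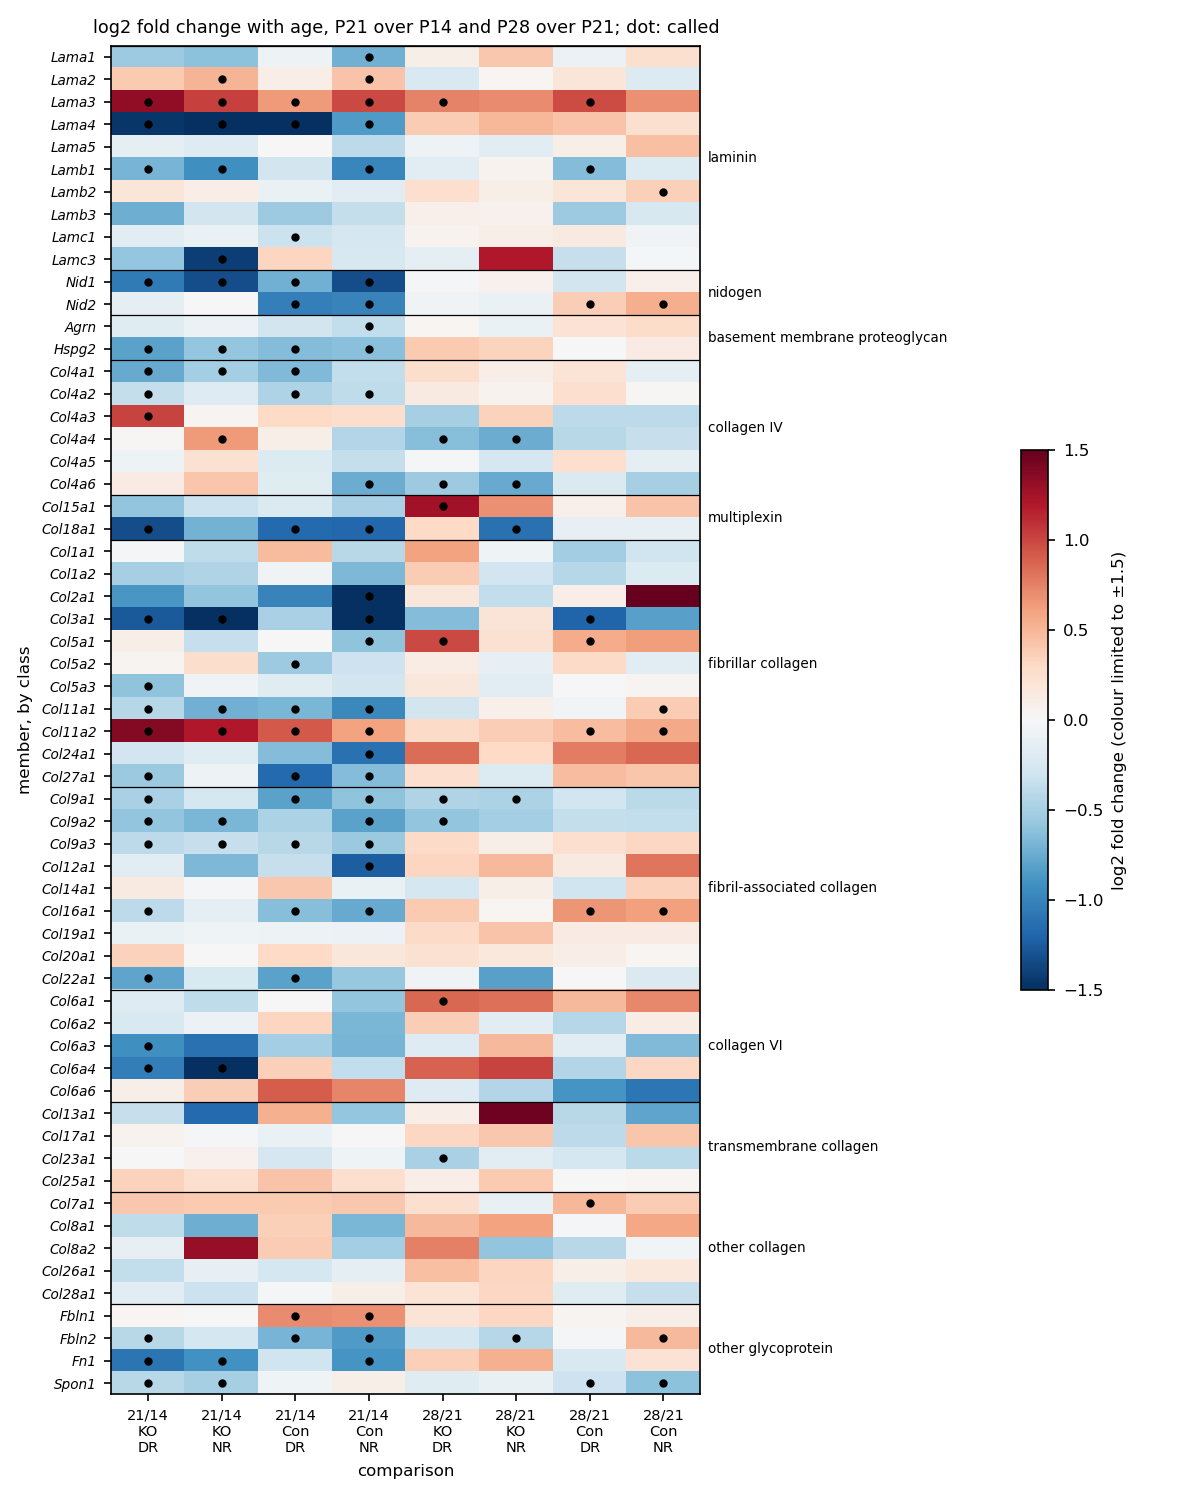
Heat map of the log2 fold change with age for 60 of the 61 members (rows, by class): P21 over P14 in the left 4 columns and P28 over P21 in the right 4, by genotype (KO is GR-KO, Con is GR-Con) and rearing; a black dot marks a call. Falls up to P21 prevail (13 to 23 dots a column), while Lama3 and Col11a2 rise in each of those 4 columns and Nid2 and Fbln1 carry dots only in GR-Con there.

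After P21 fewer members moved. At P28 against P21 in GR-KO 4 were higher (1.9% of all genes) and 5 lower (1.38%) under DR, and 0 were higher (1.6%) and 5 lower (1.15%) under NR. In GR-Con 6 were higher (2.2%) and 3 lower (1.71%) under DR, and 6 were higher (1.4%) and 1 lower (0.965%) under NR. Lama3 rose further in both genotypes under DR. Nid2, Col11a2 and Col16a1 rose in GR-Con in both rearings, and Col4a4, Col4a6 and Col9a1 fell in GR-KO in both. The calls of Col11a2 were lost without any 1 library under NR and without any 1 but P28 replicate 3 under DR, and those of Col4a4, Col4a6 and Col9a1 without 3 to 6 of the single libraries in each comparison. Lama3 in GR-KO was lost without P21 replicate 1 or 3 or P28 replicate 1 or 2, Nid2 under DR without replicate 1 of either age and Col16a1 under NR without P21 replicate 1 or 3 or P28 replicate 2. The counts were unsteady too: with 1 library left out they ran from 4 to 8 in GR-KO under DR and from 0 to 4 under NR, and from 3 to 11 in GR-Con under DR and from 2 to 5 under NR. In GR-KO the lowest came without P21 replicate 2 or 4 or P28 replicate 2 under DR and without replicate 1 of either age under NR. In GR-Con they came without P28 replicate 1 or 2 under DR and without P21 replicate 1 under NR, and the 3 named libraries took GR-Con to 3 under DR and 2 under NR when left out.

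Rearing in darkness gave few called members, and their number depended on the fit. DR was compared with NR at an adjusted p below 0.05. In GR-KO 0 members were called at P14 (0% of all genes) and at P21 (0.14%), and 1, Col5a1, at P28 (0.649%). In GR-Con 0 were called at P14 (0%), P21 (1.25%) and P28 (0.421%). With edgeR 2 to 16 of 61 members per comparison had an unadjusted p below 0.05. The 2 were in P28 GR-Con, where 1879 of 17106 genes did, and the 16 in P21 GR-Con, where 2720 did. DESeq2 called 0 members at P14 in both genotypes, 1 at P21 in each, and 2 in GR-KO and 0 in GR-Con at P28. In P21 GR-Con, in place of 0, 4 were called with only the groups compared, 3 with the marker score, and 1 with DESeq2's size factors or without NR replicate 1 or the 3 named libraries. In P21 GR-KO 1 was called with only the groups compared. The share of all genes called in these other fits was not counted, so their counts only describe the members. Col5a1 (α1 chain of collagen V) had 42.8, 31.9, 31.8 and 34.1 CPM in DR GR-KO and 23.6, 18.5 and 18.6 CPM in NR GR-KO at P28 (log2 fold change 0.80, SE 0.18, adjusted p = 0.0215). The call was lost without DR GR-KO replicate 1 or 4 or NR GR-KO replicate 1 or 2, and in a fit of those groups alone. Col4a1 came closest otherwise, at P21 in GR-Con, with 38.3, 41.4, 32.7 and 38.2 CPM under DR and 38.9, 62.9 and 53.9 CPM under NR (log2 fold change -0.46, SE 0.13, adjusted p = 0.054).

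The GR difference was not called different between rearings for any member. At P14, P21 and P28 0 members were called for the difference under DR minus that under NR, against 0%, 0% and 0.00585% of all genes. DESeq2 called 0 members at each age. In edgeR 5, 5 and 8 of 61 members had an unadjusted p below 0.05, against 434, 765 and 1424 of all 17106 genes. For Fbln1 at P21 the difference between rearings was 0.00 with a 95% interval from -0.29 to 0.29. For Nid2 it was -0.31 (-0.58 to -0.04), for Spon1 0.20 (-0.01 to 0.40), for Lama3 -0.16 (-0.78 to 0.45) and for Col27a1 -0.32 (-0.78 to 0.14).

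Collagens I and III, the main fibrillar collagens of fibroblasts, showed no call between genotypes. Col1a1, Col1a2 and Col3a1 were called in 0 of the 6 comparisons of genotypes. In DR GR-KO at P28 replicate 4 stood apart, with 68.5 CPM of Col1a1 against 12.6 to 23.8 in the other 3 libraries and 39.6 CPM of Col1a2 against 6.82 to 11.4. Col3a1 did not share this, at 1.95 to 3.45 CPM in the group, nor did the summed fibroblast markers, at 107 CPM in that library and 65.6 to 129 CPM in the other 3. At P14 in NR GR-Con the 3 fibroblast marker sums of 171, 148 and 85.1 CPM ran alongside 27.3, 18.3 and 8.21 CPM of Col3a1. The part of fibroblast nuclei in these values was not tested.

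**Figure D5:**
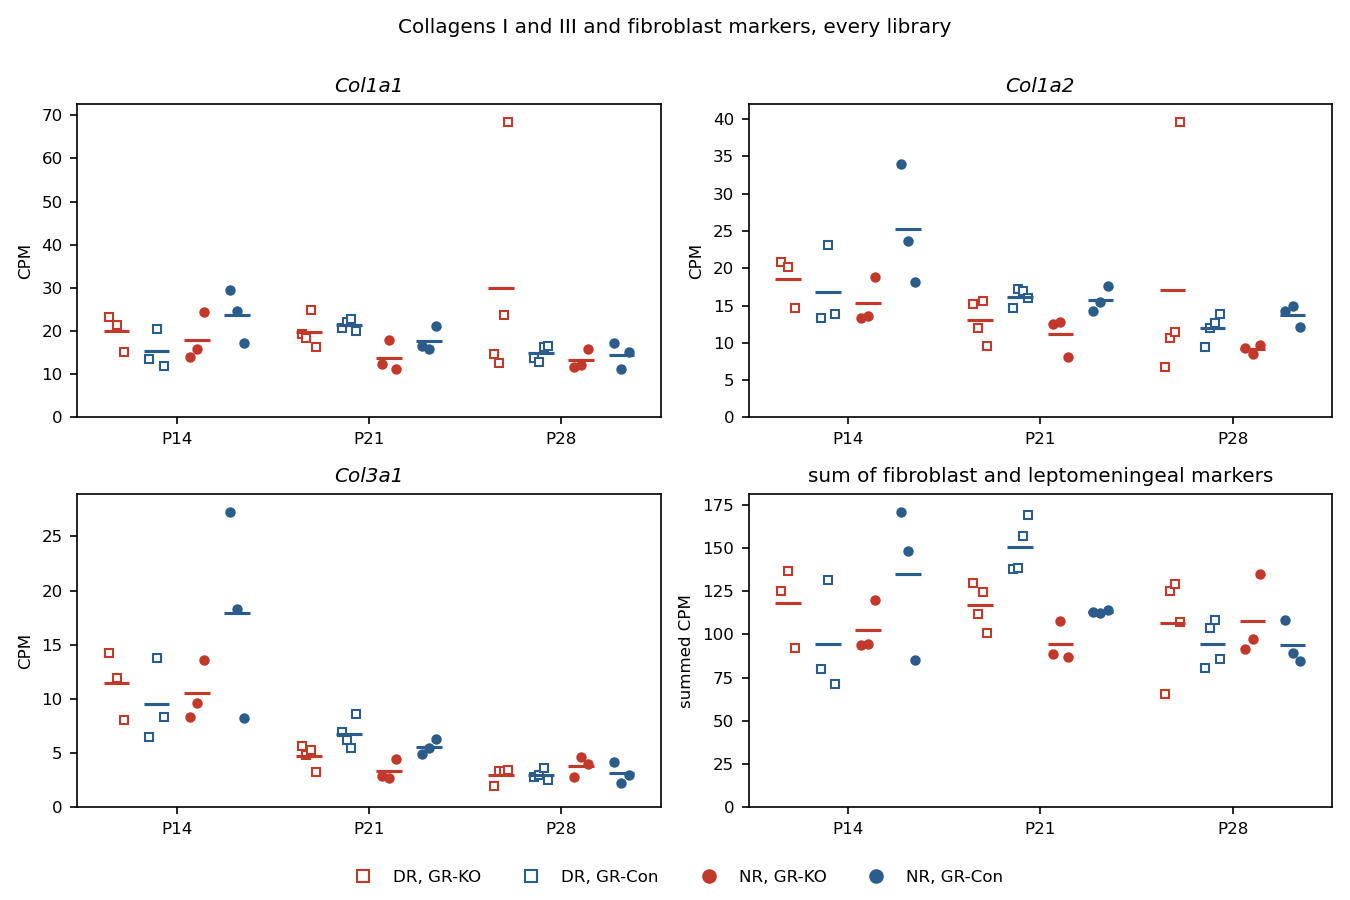
CPM from 0 (y) of each library at P14, P21 and P28 (x) for Col1a1, Col1a2 and Col3a1, and the summed CPM of 15 fibroblast and leptomeningeal markers; red GR-KO, blue GR-Con, open squares DR, filled circles NR, lines the group means. One DR GR-KO library at P28 reaches 68.5 CPM of Col1a1 and 39.6 CPM of Col1a2 without a high marker sum.

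Markers of other cells were set beside the P21 genotype differences. Ependymal and choroid plexus markers summed to 9.66 to 15.2 CPM in DR GR-KO and 7.95 to 74.0 CPM in DR GR-Con, and to 16.8 to 86.7 CPM in NR GR-KO and 7.30 to 8.88 CPM in NR GR-Con. Of 10 tested genes 1 was lower under DR and 3 were higher under NR. Mural cell markers summed to 240.4 to 313 CPM in DR GR-KO and 209.5 to 231 CPM in DR GR-Con, and to 232 to 294 CPM in NR GR-KO and 202 to 219 CPM in NR GR-Con. Called among 13 mural genes were Notch3 and Atp13a5 under DR and Notch3 under NR, all higher; Notch3 averaged 39.4 ± 6.1 CPM in NR GR-KO and 19.5 ± 3.1 CPM in NR GR-Con (SD, n = 3 each). Fibroblast markers summed to 101 to 129.98 CPM in DR GR-KO and 138 to 169 CPM in DR GR-Con, and to 86.8 to 108 CPM in NR GR-KO and 113 to 114 CPM in NR GR-Con. Although these sums were lower in GR-KO, the 2 of 14 tested fibroblast genes that were called, Aox3 and Bmp6, were higher in both rearings. Endothelial sums overlapped in both rearings, and of 13 genes Pecam1 alone was called, lower under NR with 1.75 ± 0.12 CPM in NR GR-KO and 3.35 ± 1.2 CPM in NR GR-Con.

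Under NR 4 further sums were lower in GR-KO without overlap. Neuron markers summed to 2507 to 4032 CPM in NR GR-KO and 4186 to 4307 CPM in NR GR-Con, and oligodendrocyte markers to 720.1 to 1049 CPM in NR GR-KO and 1077 to 1287 CPM in NR GR-Con. Microglia markers summed to 55.1 to 73.8 CPM in NR GR-KO and 75.7 to 83.9 CPM in NR GR-Con, and oligodendrocyte precursor markers to 122 to 125 CPM in NR GR-KO and 129 to 136 CPM in NR GR-Con. Under DR these 4 sums overlapped, and no gene of the 4 lists was called in either rearing. Their part in the members' differences was not tested. With the score of fibroblast, endothelial and mural markers as a covariate, 10 of the 13 P21 calls remained under DR and 13 of 13 under NR. Without P21 NR GR-KO replicate 1, the library with the highest sum of ependymal and choroid plexus markers, 8 of the 13 remained.

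Genes that receive, build or cut the matrix were taken from lists chosen with earlier results of these data known. Of 26 tested matrix receptors 3 were higher and 3 lower in GR-KO at P21 under DR, and 4 higher and 2 lower under NR, where over all genes 4.3% were higher and 2.38% lower under DR and 4.67% higher and 2.57% lower under NR. Under NR Sdc1 (syndecan-1) was higher (log2 fold change 1.73, adjusted p = 0.0402) on about 1 CPM, Sdc4 (syndecan-4) lower (-0.93, adjusted p = 3.34e-05), Cd44 (a hyaluronan receptor) higher (0.90, adjusted p = 5.88e-05) and Itgav (integrin αV) lower (-0.78, adjusted p = 6.14e-07). Of 17 genes of the dystrophin complex and endfoot 4 were higher and 0 lower under DR, and 4 higher and 1 lower under NR. Sntb1 (β1-syntrophin) averaged 82.9 ± 15.5 CPM in NR GR-KO and 38.5 ± 3.6 CPM in NR GR-Con, and Aqp4 (the endfoot water channel) 477 ± 36.8 CPM in NR GR-KO and 298 ± 6.3 CPM in NR GR-Con. Utrn (utrophin) had a log2 fold change of 0.43 (adjusted p = 0.0102) and Sgce (ε-sarcoglycan) of 0.36 (adjusted p = 0.0429).

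Of 36 genes of collagen and laminin processing 3 were higher and 2 lower under DR at P21 (8.33% and 5.56%, against 4.3% and 2.38% of all genes), and 3 higher and 1 lower under NR (8.33% and 2.78%, against 4.67% and 2.57%), which is close to the share over all genes and not read as a result about the list. P4ha2, a prolyl 4-hydroxylase subunit, was lower under NR with 20.9 ± 2.9 CPM in GR-KO and 38.5 ± 2.1 CPM in GR-Con. P4ha3 of the same enzyme family (0.64, adjusted p = 0.0133), Pxdn (peroxidasin, which cross-links collagen IV; 0.60, adjusted p = 1.76e-05) and Colgalt2 (a collagen galactosyltransferase; 0.47, adjusted p = 0.0326) were higher on the log2 scale. Of 21 tested matrix proteases and inhibitors 6 were higher and 1 lower under DR, and 7 higher and 1 lower under NR. The study itself picked several of these metalloproteinases from these libraries, so their direction is not independent evidence. Mmp2 (1.46, adjusted p = 0.00592), Adamts5 (1.26, adjusted p = 1.35e-08), Adamts16 (1.12, adjusted p = 1.25e-05) and Mmp14 (1.12, adjusted p = 1.34e-08), all secreted or membrane-bound metalloproteinases, had the largest log2 fold changes under NR. Of 42 tested other matrix partners 6 were higher and 2 lower under DR, and 5 higher and 1 lower under NR. Tnc (tenascin-C) averaged 624 ± 82.9 CPM in NR GR-KO and 226 ± 9.5 CPM in NR GR-Con, and Sparc, a collagen-binding glycoprotein, 29.0 ± 5.9 CPM in NR GR-KO and 79.4 ± 8.4 CPM in NR GR-Con (SD, n = 3 each). Vcan (versican; 1.16, adjusted p = 1.49e-11) and Fras1 (1.05, adjusted p = 7.83e-08) were also higher on the log2 scale. Tnc and Vcan too were picked by the study from these libraries and are not independent evidence. All adjusted p-values here are from edgeR's quasi-likelihood test.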

How the data were processed

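Nuclear RNA of sorted V1 astrocyte nuclei was sequenced from 40 libraries in 12 groups (SMARTer total RNA kit). Per the study's methods and the submitters' processing notes, the authors aligned reads to mm10 with STAR and deposited raw counts over gene bodies (exons and introns) from Subread featureCounts; the strand setting of counting was not found in these sources, so antisense reads cannot be told apart. Gene-body counts include unspliced RNA and favour long genes. Each library's total was 17240294 to 49221787 counts, and counting error is smallest for the most abundant members.

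Counts were fitted with edgeR 4.0.16 (quasi-likelihood, trimmed mean of M-values scaling, all 40 libraries, 12 group means) in R 4.3.3 over 17106 genes kept by filterByExpr, with Benjamini-Hochberg adjustment over all of them in each of 27 comparisons. Standard errors and 95% intervals came from the same fit. CPM in the text are scaled by these factors. Libraries are separate pools of mice. Members and lists were chosen with earlier results of these data known, and 1 member, though counted, is not reported here by name. Values in every library were given for members called in 2 or more of the 6 genotype comparisons and for Col2a1. For Col3a1 they were given in some groups only. Up to 4 called genes per list at P21 under NR were named. Others named were chosen after their values were seen. On counts simulated for P21 under NR (17106 genes) the test recovered 35.8% of genes changed 1.5-fold, 61.2% at 2-fold and 81.8% at 3-fold. The changed genes (67, 67 and 66 at these folds) were drawn at random from all those tested. Their recovery therefore does not give the power for the members. Alternatives were DESeq2 1.42.0, its size factors, no filter, only the groups compared, a replicate block, a score of fibroblast, endothelial and mural markers as covariate, and libraries left out.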

Additional observations from a re-analysis of the deposited data

Results flagged for a closer look

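Of 244 groups of 4 libraries tested, 1 member at a time, 14 held a library that stood far from the other 3 (Dixon's test), where chance gives about 1 in 20. In DR GR-KO at P28, replicate 4 had 39.6 CPM of Col1a2 (6.82 to 11.4 in the others). Replicate 1 of that group had 188 CPM of Agrn (154 to 155), 13.6 CPM of Col9a1 (17.1 to 17.8) and 1.95 CPM of Col3a1 (3.35 to 3.45). In DR GR-KO at P21, replicate 1 had 28 CPM of Col27a1 (29.1 to 29.3) and replicate 3 had 4.65 CPM of Nid1 (3.98 to 4.04).

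In DR GR-Con at P28, replicate 2 had 7.74 CPM of Col26a1 (3.49 to 3.97) and 24.1 CPM of Nid2 (29.1 to 29.9), and replicate 1 had 4.84 CPM of Col22a1 (5.50 to 5.59) and 53.7 CPM of Col16a1 (46.5 to 47.5). In DR GR-Con at P21, replicate 1 had 12.9 CPM of Col9a1 (17.7 to 18.6). Replicate 2 had 26.2 CPM of Col19a1 (21.5 to 21.9) and 2.53 CPM of Col28a1 (0.939 to 1.08), and replicate 4 had 5.69 CPM of Col7a1 (6.64 to 6.74).

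The difference between genotypes itself differed between ages for 5 members, by the interaction term in edgeR. From P14 to P21 it changed by 0.89 for Nid2 and -0.69 for Fbln1 under DR, and by 1.01 for Nid2, 1.16 for Col4a6, -0.69 for Fbln1 and -0.58 for Spon1 under NR (log2). From P21 to P28 under NR it changed by -0.65 for Nid2, 0.50 for Spon1 and -0.92 for Fbln2.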

How the results depend on the processing

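No called member changed direction under any alternative run, and DESeq2 kept all 171 calls. Of these, 4 were lost with DESeq2's size factors, 12 with no filter, 43 with only the groups compared and 30 with the marker score. Same-numbered libraries did not deviate together at P14 and P21 (mean r -0.0061 and -0.014), and the labels give no shared litter or batch. At P28 the mean was 0.0839. Over the 4 pairs of DR GR-KO with DR GR-Con r was 0.0865 to 0.303, and 5 of 8 libraries correlated best with their own number. Over the 3 pairs of NR GR-KO with DR GR-KO, compared for rearing, r was 0.000926 to 0.262, and 4 of 7 libraries did so. Over the 3 pairs of NR GR-KO with DR GR-Con, 2 groups not compared directly, r was 0.125 to 0.194. Some pairing at P28 is thus possible, in groups compared directly too, although no 2 of these had every pair over 0.1. With a replicate block within age 45 calls were lost; genotype calls at P28 were then 6 under DR and 8 under NR. Depth limits low members such as Col2a1 and Col6a4, and the P21 NR libraries most. The causes of these shifts were not tested. The share of all genes called under each alternative was not counted either, so the counts under alternatives only describe the members.

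With the replicate block, 15 members in place of 25 were called at P21 against P14 in GR-KO under DR, 5 in place of 9 at P28 against P21 in GR-KO under DR and 1 in place of 5 under NR. With this block the change of the genotype difference up to P21 was called for 2 members in place of 4 under NR and 1 in place of 2 under DR, and that from P21 to P28 under NR for 1 in place of 3.

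With only the groups compared, 1 member was called for genotype at P14 under NR, 4 and 0 for P28 against P21 in GR-KO under DR and NR, 4, 1 and 0 for DR against NR in P21 GR-Con, P21 GR-KO and P28 GR-KO, and 1 and 0 for the change of the genotype difference under NR up to P21 and after it. With the marker score the counts were 1 for genotype at P14 under NR, 1 for P28 against P21 in GR-KO under NR, 3 for DR against NR in P21 GR-Con, and 1 each for the change of the genotype difference from P21 to P28 under NR and from P14 to P21 under DR. DESeq2 called 8 members for P28 against P21 in GR-KO under NR, 1 for DR against NR at P21 in each genotype and 2 in P28 GR-KO. Its size factors gave 1 for DR against NR in P21 GR-Con, and no filter gave 1 for the change up to P21 under DR.

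Without the 3 libraries named earlier as standing apart, genotype calls were 1 at P14 under NR and 8 at P21 under NR. At P28 against P21 in GR-Con 3 were called under DR and 2 under NR, at P21 against P14 in GR-KO under NR 11, for DR against NR in P21 GR-Con 1, and for the change of the genotype difference 2 and 1 under NR (up to and after P21) and 1 under DR (up to P21).

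With 1 library left out at a time, genotype calls ran from 0 to 1 at P14 under NR, from 7 to 14 under DR and 8 to 14 under NR at P21, and from 5 to 6 under DR and 5 to 8 under NR at P28. P21 against P14 gave 17 to 23 and 10 to 16 in GR-KO under DR and NR, and 17 to 21 and 20 to 29 in GR-Con. P28 against P21 gave 4 to 8 and 0 to 4 in GR-KO, and 3 to 11 and 2 to 5 in GR-Con. DR against NR gave 0 to 1 in P21 GR-Con and 0 to 2 in P28 GR-KO, and the change of the genotype difference gave 1 to 4 and 0 to 2 under NR (up to and after P21) and 1 to 2 under DR (up to P21).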
